A study of Mus musculus with 3 samples.

Results

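The 9 genes described here belong to the complement system and were followed through single-cell RNA-Seq libraries of sorted leukocytes from naive and transplanted mouse lungs: the C1q chains C1qa, C1qb and C1qc, the central component C3, factor B (Cfb), properdin (Cfp), and the anaphylatoxin receptors C3ar1, C5ar1 and C5ar2. They were matched by gene symbol, and all 9 were found among the 32285 genes counted. In the study a left lung of a B6 (CD45.2) donor was transplanted into a syngeneic B6 (CD45.1) recipient after 60 minutes at 4°C and a further 45 minutes at 28°C, and the graft was harvested after 2 hours or 3 days of reperfusion. The naive library came from the left lungs of B6 mice without transplantation. The strain is labelled C57BL/6J throughout, the mice were young adults by the methods, and no group carried a mutant allele or a drug. Cells of 2 mice were pooled in each library and sorted for CD45.1, a gate meant to keep recipient cells of the grafts and leave out resident ones. Cells with endothelial markers were still found in the graft libraries, 27 at 2 hours and 76 at 3 days, and their origin was not tested. The same sort is described for the naive library, whose mice hold no recipient cells.

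Complement is a cascade of plasma and locally made proteins. C1q, assembled from A, B and C chains and made largely by macrophages, starts the classical pathway when it binds antibody or damaged cells. All pathways meet at C3, whose cleavage releases C3a and leaves C3b on the target, where factor B and its stabilizer properdin build the alternative pathway convertase that amplifies the reaction. C3a acts through C3ar1, and C5a acts through C5ar1, a chemoattractant receptor of myeloid cells, and C5ar2, which binds C5a without coupling to G proteins.

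Unique molecular identifiers (UMIs), each standing for 1 captured transcript, were summed per library and lineage and expressed per 1000000 UMIs of that lineage (CPM). Lineages were named from marker genes that include no member. The libraries held 2422 naive, 10283 2-hour and 8324 3-day cells after filtering, with medians of 7298.5, 878 and 5716.5 UMIs per cell, and shared between 1 and 23 cell barcodes pairwise. There was 1 library per condition, so no difference between conditions was tested. The intervals in brackets are exact 95% intervals of counting error alone. A gene is called higher or lower where its CPM differed more than 2-fold with at least 20 UMIs over both libraries. The naive library was processed with Cell Ranger 7.1.0 and the others with 6.0.0. When CPM was taken over genes with under 10 kb of intron only, the 33 log2 ratios to the naive library were each 0.36 to 0.48 lower. That shift cannot be told apart from the condition. Of the members, C3 (19.0 kb of intron) and C5ar1 (10.2 kb) are not among those genes. Macrophage-like cells numbered 107 naive, 6 at 2 hours and 818 at 3 days, monocyte-like cells 141, 330 and 1227, neutrophil-like cells 388, 4401 and 2268, and lymphocyte-like cells 1646, 5121 and 3240. Endothelial-like cells numbered 51, 27 and 76 and held few member UMIs; their highest count of a member was 16 UMIs of C3 at 3 days (45.0 CPM).

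The members sit in 6 places in the genome (mm10), all on the minus strand. C1qb (4:136880129-136886187), C1qc (4:136889804-136893065) and C1qa (4:136895917-136898803) lie within 18.7 kb, with 3.62 kb and 2.85 kb between neighbours. C5ar2 (7:16234585-16244154) and C5ar1 (7:16246743-16259540) are separated by 2.59 kb. C3 (17:57203970-57228136) and Cfb (17:34856374-34862518) share a chromosome but are far apart, and C3ar1 (6:122847138-122856161) and Cfp (X:20925454-20931555) stand alone. Of the 2825 exon bases of Cfb, 79.5% are shared with the readthrough gene Gm20547 on the same strand, which was not counted separately. How many of the Cfb UMIs came from Gm20547 is not known.

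Promoter sequence is shown for 4 members whose levels followed different cells: C1qb, highest in macrophages, C3ar1, highest in basophil-or-mast-like cells and abundant in 3-day macrophages, C3, spread over myeloid cells, and C5ar2, highest at 2 hours. RefSeq (GRCm38.p6) gave a promoter window for 7 of the 9 members. Each line runs 5′ to 3′ and ends at or just before the transcription start. Capitals mark matches, on either strand, to a PU.1 core (GGAAGT), a MAF half-site (TGCTGA), an AP-1 site (TGANTCA) or a C/EBP site (TTGCNNAA).
C1qb: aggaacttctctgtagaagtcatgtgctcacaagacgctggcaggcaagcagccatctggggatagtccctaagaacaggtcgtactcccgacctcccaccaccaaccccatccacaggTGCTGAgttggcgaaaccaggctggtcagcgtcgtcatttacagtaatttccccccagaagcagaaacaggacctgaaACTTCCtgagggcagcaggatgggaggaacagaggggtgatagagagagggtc
C3: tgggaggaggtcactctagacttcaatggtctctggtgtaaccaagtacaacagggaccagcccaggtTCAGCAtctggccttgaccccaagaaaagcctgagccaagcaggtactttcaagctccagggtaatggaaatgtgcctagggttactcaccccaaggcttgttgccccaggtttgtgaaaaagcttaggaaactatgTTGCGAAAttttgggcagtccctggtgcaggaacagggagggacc
C3ar1: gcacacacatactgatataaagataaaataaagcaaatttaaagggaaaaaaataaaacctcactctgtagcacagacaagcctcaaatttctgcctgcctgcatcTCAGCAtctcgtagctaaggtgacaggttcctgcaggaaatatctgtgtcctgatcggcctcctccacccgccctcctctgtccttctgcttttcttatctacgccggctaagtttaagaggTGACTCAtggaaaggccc
C5ar2: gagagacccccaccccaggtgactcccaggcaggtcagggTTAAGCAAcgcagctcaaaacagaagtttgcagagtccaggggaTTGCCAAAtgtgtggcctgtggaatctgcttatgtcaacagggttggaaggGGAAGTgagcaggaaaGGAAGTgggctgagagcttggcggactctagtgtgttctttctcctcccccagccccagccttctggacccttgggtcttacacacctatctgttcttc
These are C1qb at chr4:136886201-136886450, C3 at chr17:57228137-57228386, C3ar1 at chr6:122856162-122856407 and C5ar2 at chr7:16244155-16244404. The C1qb window holds 1 PU.1 core and 1 MAF half-site, and that of C3 a MAF half-site and a C/EBP site. That of C3ar1 holds a MAF half-site and an AP-1 site, and the C5ar2 window shown holds 2 PU.1 cores and 2 C/EBP sites. A second RefSeq window of C5ar2, at 7:16242332-16242581, lies inside the gene and held no match. Among 32851 mouse promoter windows of 250 bases the PU.1 core occurred in 19.7%, the MAF half-site in 5282 windows, the AP-1 site in 6.75% and the C/EBP site in 9.56%, so each match is common by itself and none is shown to be a bound site. The Cfp window held none of these letters.

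**Figure D1:**
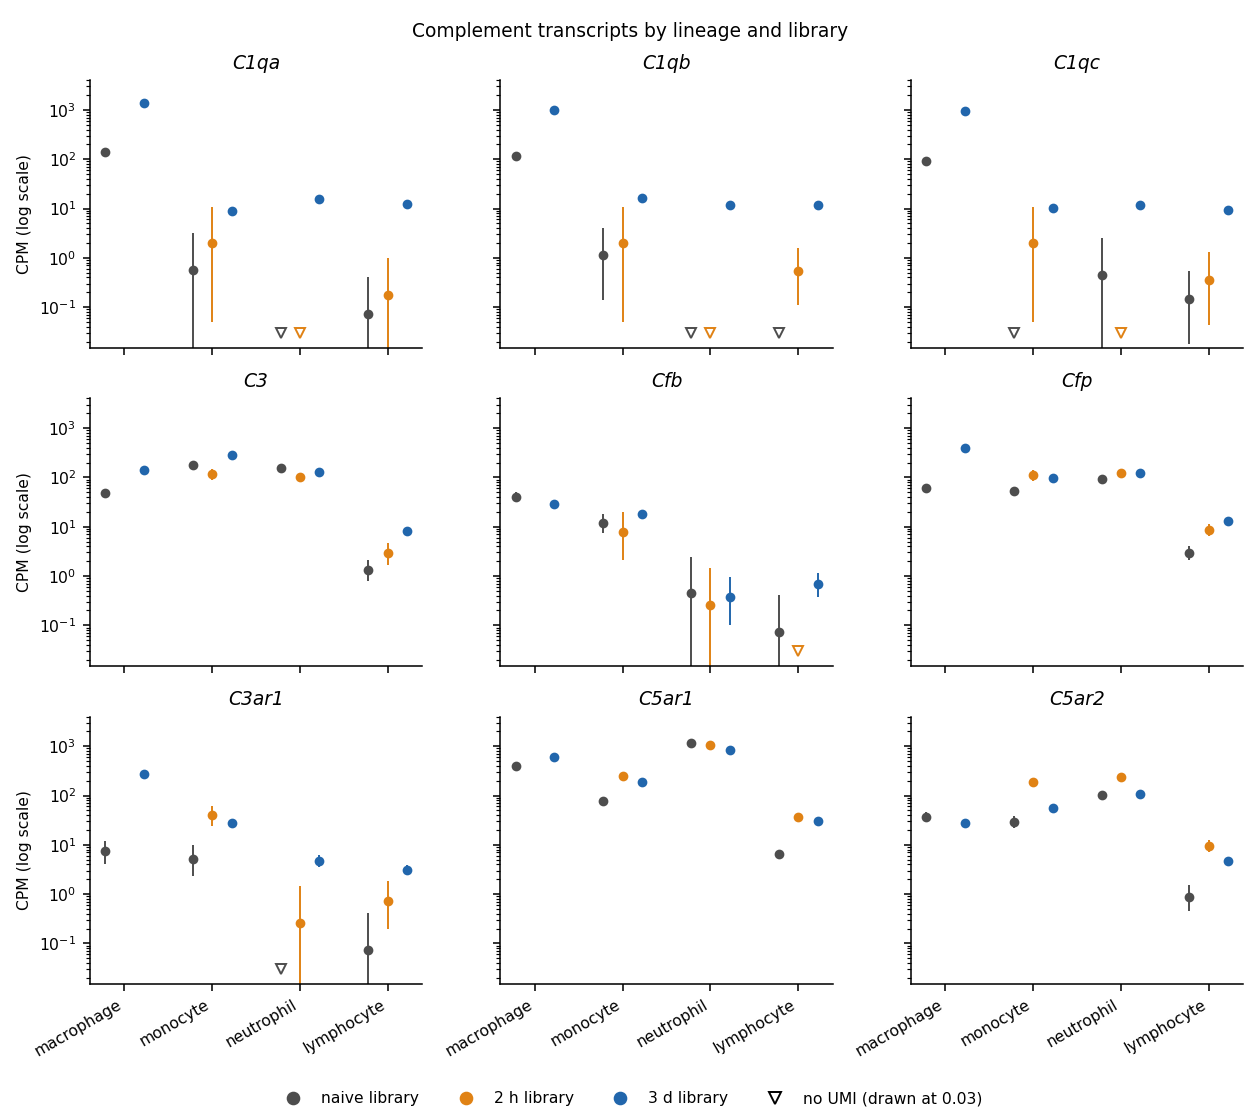
Level of each member, in CPM of summed UMIs on a log axis, in macrophage-, monocyte-, neutrophil- and lymphocyte-like cells, with the naive, 2-hour and 3-day values side by side. Points are single libraries with exact 95% Poisson bars, open triangles stand for no UMI, and the 6 macrophages of 2 hours are not drawn. Among these lineages C1q chains and C3ar1 are highest in 3-day macrophages, C5ar1 is highest in neutrophils, and C5ar2 is highest at 2 hours in both monocytes and neutrophils.

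C1q was mostly a macrophage transcript in the naive and 3-day libraries, present in few naive cells, almost missing at 2 hours and abundant at 3 days. Over all cells the 3 chains together went from 43.8 CPM in naive lungs to 1.87 and then 544 CPM in the grafts. In macrophages the sum was 348 CPM (323 to 375, 707 UMIs) naive and 3283 CPM (3246 to 3319, 31293 UMIs) at 3 days; the 6 macrophages of 2 hours held no C1q UMI, which allows up to 172 CPM. The 3-day macrophages thus stood 9.43-fold above the naive ones, a log2 ratio of 3.24 (3.13 to 3.35). Each chain was higher at 3 days, C1qa from 141 to 1364 CPM, C1qb from 116 to 983 CPM and C1qc from 91.1 to 936 CPM. At 3 days macrophages were 9.83% of the cells and held 90.2% of the C1q UMIs. In the naive library they held 78.8% of 897 C1q UMIs, and 33 cells of unnamed clusters held 20.4%. Of the 20 C1q UMIs at 2 hours, 10 were in conventional-dendritic-like cells.

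The macrophages behind that ratio were different cells in the 2 libraries. Of the naive ones, 102 formed the alveolar-macrophage-like cluster 24, which is led by alveolar markers (20960 CPM summed over 12 genes) and held a single C1q UMI (0.504 CPM). The other 5 lay in clusters 16a and 16b, subdivisions of one cluster, and held the remaining 706 UMIs, 15589 CPM. The 818 cells of 3 days were all macrophage-like without the alveolar label. No alveolar-macrophage-like cell passed the filter in either graft library, whose sort was meant to leave out donor cells. Among the removed cells 4 at 3 days and 1 at 2 hours were called alveolar. Cluster 9 at 3 days (645 cells, led by Saa3, Arg1 and Serpinb2) stood at 2186 CPM, cluster 16a (94 cells) at 4883 CPM and cluster 16b (79 cells, led by Fcrls, Ms4a7, Gatm and Stab1) at 7288 CPM. Within clusters 16a and 16b alone, the direction turned: the 3-day cells were lower than the 5 naive cells, with a log2 ratio of -1.39. The make-up of the macrophages, the sort and the condition cannot be told apart in the pooled ratio. Without the filter on cells, which removed 193 naive macrophages, 189 of them alveolar, the pooled log2 ratio was 4.67, and as a mean over cells it was 2.17.

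The 3-day macrophage clusters also carried transcripts that monocytes share. In cluster 9 the classical monocyte list summed to 12620 CPM, but 11200 CPM of that was Fn1, which macrophages also make. Ly6c2, a defining marker of classical monocytes, stood at 17.95 CPM there, against 549 CPM in 3-day monocytes. Plac8 was likewise far lower, at 96.7 against 2709 CPM, but F13a1 (375 against 564 CPM), Ccr2 (360 against 768 CPM), Vcan (208 against 598 CPM) and Hp (219 against 811 CPM) were nearer to monocytes. All 10 genes of the list were detected. In clusters 16a and 16b at 3 days the same list summed to 5373 CPM, 3370 CPM of it Fn1, against 7996 CPM in 3-day monocytes. Ccr2 (882 CPM) and F13a1 (647 CPM) stood above both cluster 9 and 3-day monocytes there. Vcan (75.26 CPM) and Hp (69.53 CPM) stood below both, and Ly6c2 was at 16.49 CPM. The part of these markers in the C1q level was not tested.

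**Figure D2:**
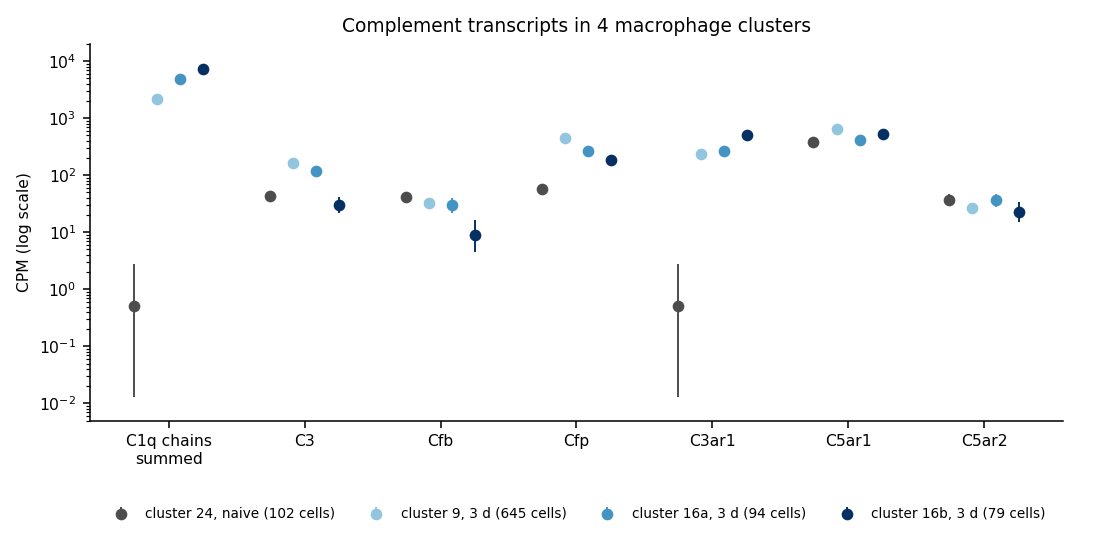
Levels of the C1q sum and 6 other members, in CPM on a log axis, in the naive alveolar-macrophage-like cluster 24 (102 cells) and in clusters 9, 16a and 16b at 3 days (645, 94 and 79 cells), with exact 95% Poisson bars. C1q and C3ar1 are near 0 in cluster 24 and highest in cluster 16b, C3 and Cfp are highest in cluster 9, and Cfb is highest in cluster 24.

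Within clusters C1q varied from cell to cell. Per 10000 UMIs of a cell, the median was 16.3 in cluster 9, where 104 of 645 cells had no C1q UMI, 43.1 in cluster 16a with 14.9% without, and 75.0 in cluster 16b, where every cell had at least 1. Cells with 10 or more C1q UMIs numbered 8 in naive lungs, where they held 99.0% of the 897 C1q UMIs, 0 of 10283 at 2 hours, where the library had 20 C1q UMIs in all, and 550 at 3 days with 93.3% of 34685 UMIs. Cells at 2 hours were shallow, so this count also depends on depth. Thinned to 1000 UMIs a cell, 65.9% (62.5 to 69.1) of 3-day macrophages held a UMI of any C1q chain, against 4.67% (1.53 to 10.6) of the naive ones. In lymphocytes the share was 0.0609%, 0.0421% and 3.46%. Without thinning it was 85.6% in 3-day and 5.61% in naive macrophages, and 0.182%, 0.0391% and 15.3% in lymphocytes. Thinned to 1000 UMIs, all 3 chains were found together in 20.9% of 3-day macrophages and 0.0618% of 3-day lymphocytes.

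A low C1q level was also found in the other leukocyte lineages at 3 days. It was 33.4 CPM in lymphocytes, which are not known to make C1q, and 35.1 CPM in monocytes and 39.5 CPM in neutrophils, whereas the naive values of these lineages were 0.221, 1.71 and 0.445 CPM and the 2-hour values 1.07, 5.91 and 0 CPM. At 3 days B cells stood at 34.6, T cells at 34.1 and NK cells at 22.9 CPM. The level was uneven among T cells, as 16 of them, in cluster 1, held 776 CPM of C1qa (39 UMIs). The levels of monocytes and neutrophils lay close to that of lymphocytes, and whether these cells express C1q was not tested. Cells with 10 or more C1q UMIs at 3 days numbered 9 among monocytes, 0 among neutrophils and 4 among lymphocytes. Their median depths differed, at 14557, 4436 and 5690.5 UMIs per cell. The chains in monocytes were not in the proportions of the other lineages, as C1qb made up 45.9% (41.8 to 50.1) of their 579 C1q UMIs, against 29.9% in macrophages, 30.5% in neutrophils and 35.4% in lymphocytes at 3 days. Conventional-dendritic-like cells stood higher, at 882 CPM over 64 cells, of which cluster 16d (37 cells) reached 1351 CPM, and 35 of the 64 had no C1q UMI.

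The proportions also differed between macrophage clusters. C1qa supplied 43.0%, C1qb 24.1% and C1qc 32.9% of C1q UMIs in cluster 9, and 38.4%, 38.5% and 23.1% in cluster 16a. Cluster 16b had 41.9%, 32.2% and 25.9%, near the 40.6%, 33.2% and 26.2% of naive macrophages. Of the 707 naive macrophage C1q UMIs, however, 493 came from 3 naive cells of cluster 16b itself. The intervals of the C1qb shares in clusters 9 (23.5 to 24.8) and 16a (37.4 to 39.6) did not overlap. They cover counting error and not the spread between cells, so the difference was not tested.

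C3, the protein on which all pathways converge, was shared among monocytes, neutrophils and macrophages. Over all cells it stood at 39.1, 47.3 and 128 CPM in the naive, 2-hour and 3-day libraries. Monocytes held 179 CPM (159 to 199) naive, 116 CPM (88.5 to 149.96) at 2 hours and 288 CPM (280 to 296) at 3 days, so the 3-day library was highest and the 2-hour library lowest. Neutrophils were highest in naive lungs, at 158 CPM, and the grafts gave 100 and then 129 CPM. Macrophages stood at 48.3 CPM naive and 140 CPM at 3 days, 2.91-fold higher, with 57.2 CPM (1 UMI) at 2 hours. That ratio too turned within clusters 16a and 16b, to a log2 of -1.82 against the 5 naive cells, and was 1.95 for cluster 9 against cluster 24. Lymphocytes stood at 1.32, 2.86 and 8.02 CPM.

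Classical-monocyte-like cells carried most of the monocyte C3. They stood at 273, 172 and 353 CPM in the naive, 2-hour and 3-day libraries, and nonclassical ones at 62.3, 41.6 and 62.1 CPM. For the nonclassical cells alone the log2 ratio of 3 days to naive was -0.006. Classical cells made up 68 of 141 naive monocytes and 757 of 1227 at 3 days, so the pooled level moved with the make-up too. Among 3-day classical cells C3 was widespread, with a median of 3.17 per 10000 UMIs and 5.28% of cells without a UMI. Monocytes were 14.7% of 3-day cells and held 58.2% of C3 UMIs, while in the naive library neutrophils held 44.2% and monocytes 39.2%.

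Small neutrophil clusters stood far above the rest in C3. At 3 days cluster 21d (52 cells, led by Il1f9, Ccl3, Cxcl3 and Tnf) held 927 CPM and cluster 21b (67 cells) held 511 CPM. The main neutrophil clusters stood at 156 CPM (cluster 18, naive), 122 and 67.3 CPM (clusters 0 and 3, 2 hours) and 103 CPM (cluster 2, 3 days). These main clusters are each mostly of 1 library, so cluster and library cannot be told apart.

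Cfb, which supplies the protease of the alternative pathway convertase, was counted mostly in macrophages and monocytes. Macrophages held 39.9 CPM (31.7 to 49.6) naive and 28.7 CPM (25.4 to 32.4) at 3 days, a log2 ratio of -0.47 (-0.84 to -0.10), with none in the 6 cells of 2 hours. Monocytes stood at 11.9, 7.88 and 18.0 CPM. In neutrophils Cfb did not pass 0.445 CPM and in lymphocytes 0.684 CPM. The alveolar cluster 24 stood at 40.8 CPM, cluster 9 at 32.0 CPM, cluster 16a at 29.9 CPM and cluster 16b at 9.0 CPM. The nonclassical monocytes went against the pooled 3-day to 2-hour ratio, with a log2 of -2.51 against 1.19 for all monocytes, on few UMIs. The filter on cells took a larger share of the naive UMIs of Cfb than of any other member. Of its 387 naive UMIs, 71.1% lay in cells that were removed, mostly in the 193 removed cells called macrophages, which outnumbered the 107 kept.

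Cfp, or properdin, was broader. In macrophages it stood at 60.1 CPM naive and 386 CPM at 3 days, 6.42-fold higher, and at 114 CPM (2 UMIs) at 2 hours. Within clusters 16a and 16b alone the log2 ratio of 3 days to naive was 0.03 (-0.86 to 1.10, 10 naive UMIs), and the call was lost. Monocytes held 52.9, 110 and 97.3 CPM, neutrophils 92.6, 125 and 120 CPM, and lymphocytes 2.94, 8.58 and 12.9 CPM. The 3-day to naive ratio in monocytes was 0.88 on the log2 scale, with 0.63 in classical and 0.58 in nonclassical cells. In neutrophils the ratio to naive changed sign with the intron-limited denominator, from 0.43 to -0.05 at 2 hours. Cluster 9 stood at 452 CPM, cluster 16a at 260 CPM and cluster 16b at 182 CPM, the reverse of their order in C1q. Conventional-dendritic-like cells held 395 CPM at 3 days, and plasmacytoid-dendritic-like cells 79.8, 282 and 223 CPM.

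**Figure D3:**
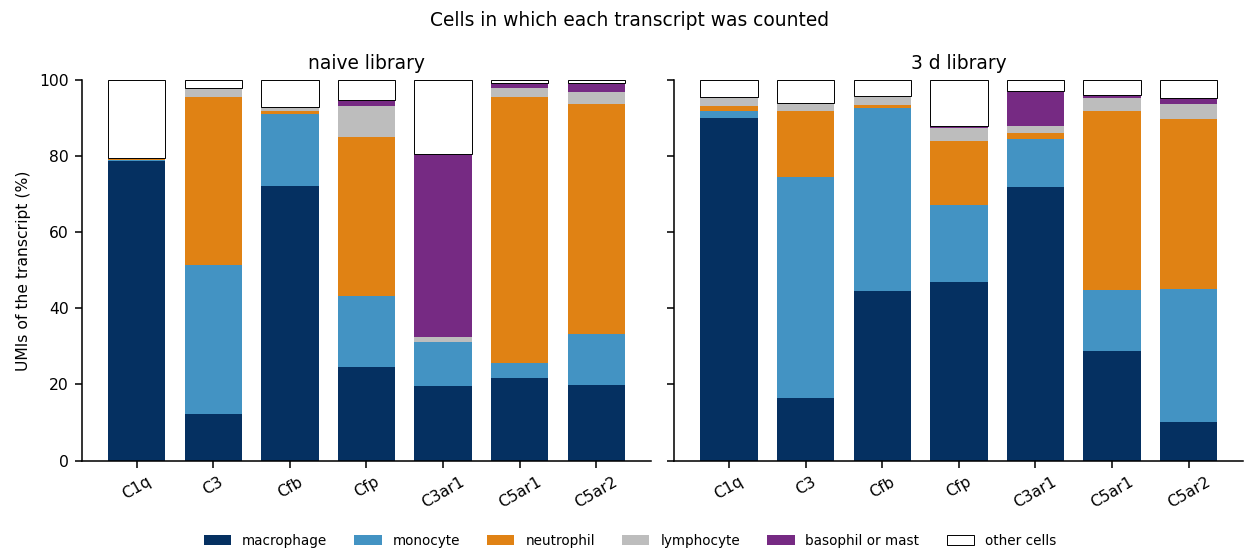
Percent of each member's UMIs found in macrophages, monocytes, neutrophils and other cells of the naive and 3-day libraries, as stacked bars from 0. At 3 days macrophages hold 90.2% of C1q and 72.0% of C3ar1, monocytes hold 58.2% of C3, and neutrophils hold 47.2% of C5ar1.

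C3ar1, the receptor of C3a, was a macrophage and basophil transcript. It was at 7.39 CPM (15 UMIs) in naive macrophages, of which 14 UMIs came from the 5 non-alveolar cells, at 114 CPM (2 UMIs) in the 6 cells of 2 hours and at 273 CPM (263 to 284, 2607 UMIs) at 3 days. The ratio of 3 days to naive was 37.01-fold, a log2 of 5.21 (4.49 to 6.05), and only 0.24 within clusters 16a and 16b. Cluster 16b was highest, at 499 CPM, with 263 CPM in cluster 16a and 235 CPM in cluster 9. Monocytes stood at 5.12, 39.4 and 27.7 CPM. The classical cells held 7.20 (7 UMIs), 68.7 (20 UMIs) and 34.6 CPM, and the nonclassical ones 2.54 (2 UMIs), 0 and 3.79 CPM. The 0 at 2 hours allows up to 13.9 CPM, so whether the nonclassical cells differed from naive then cannot be told. Neutrophils did not pass 4.78 CPM, near the 3.14 CPM of lymphocytes at 3 days. Basophil-or-mast-like cells held 233, 292 and 475 CPM, and although they were 0.826% of naive cells they held 48.1% of naive C3ar1 UMIs.

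C5ar1, which guides myeloid cells to C5a, was highest in neutrophils. Their level was 1136 CPM (1092 to 1181) naive, 1053 CPM (1021 to 1086) at 2 hours and 852 CPM (835 to 870) at 3 days, lower in the graft libraries by log2 ratios of -0.11 and -0.42. The 2-hour ratio depended on the cells taken: it was -0.003 with cluster 0 alone, -0.29 with cluster 3 alone, and -0.59 with the intron-limited denominator. Macrophages stood at 389 CPM naive, 572 CPM (10 UMIs) at 2 hours and 591 CPM at 3 days, and monocytes at 79.1, 246 and 191 CPM, with both graft libraries above the naive one. Lymphocytes, which largely lack the receptor, showed 6.47, 36.8 and 29.9 CPM. Neutrophils supplied 70.1% of naive, 87.7% of 2-hour and 47.2% of 3-day C5ar1 UMIs, and macrophages 28.7% of those of 3 days.

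C5ar2, the second C5a receptor, was highest at 2 hours in neutrophils, monocytes and lymphocytes. Neutrophils held 102 CPM (89.6 to 116) naive, 233 CPM (218 to 249) at 2 hours and 108 CPM (102 to 114) at 3 days, a 2.27-fold higher level at 2 hours than naive (log2 1.19, and 0.71 with the intron-limited denominator). Monocytes held 29.0 CPM, 185 CPM (150 to 227) and 55.8 CPM, 6.39-fold higher at 2 hours than naive. Lymphocytes went the same way, at 0.882, 9.48 and 4.74 CPM, and the part of free RNA in the 2-hour levels was not tested. Naive and 3-day macrophages held 37.4 and 27.8 CPM. In nonclassical monocytes the level went from 21.6 to 236 and back to 50.1 CPM, and in classical ones from 35.0 to 148 and 57.4 CPM. Basophil-or-mast-like cells stood at 56.8, 381 (34 UMIs) and 57.8 CPM, the highest 2-hour level of any named cell type.

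**Figure D4:**
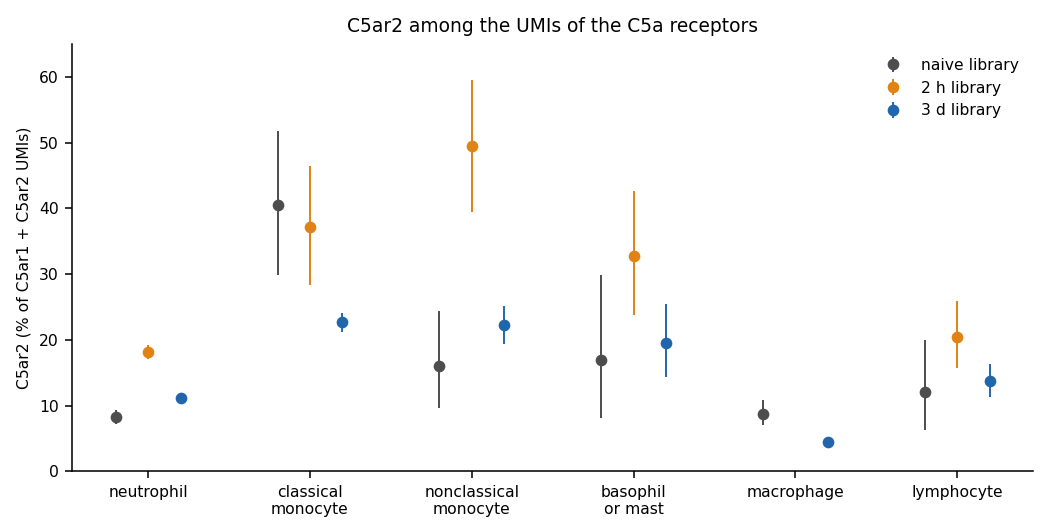
C5ar2 UMIs as a percent of C5ar1 and C5ar2 UMIs together, per cell group and library, with exact 95% binomial bars. The 2-hour share is above the naive and 3-day shares in neutrophils and in nonclassical monocytes.

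The balance of the 2 C5a receptors followed. C5ar2 supplied 8.27% (7.27 to 9.35) of the pair's UMIs in naive neutrophils, 18.1% (17.1 to 19.2) at 2 hours and 11.2% (10.6 to 11.8) at 3 days. In nonclassical monocytes C5ar2 supplied 17 of 106 UMIs naive, 49.5% at 2 hours and 22.2% at 3 days, whereas in classical ones it was 40.5%, 37.1% and 22.7%, with no 2-hour peak. Lymphocytes had 12 of 100 UMIs naive, 20.5% at 2 hours and 13.7% at 3 days, basophil-or-mast-like cells 17.0%, 32.7% and 19.5%, and macrophages 8.79% naive and 4.49% at 3 days. Thinned to 1000 UMIs, neutrophils with a C5ar2 UMI made up 12.8%, 20.2% and 10.7% of cells, and those with C5ar1 63.6%, 62.4% and 55.2%. Without thinning, which leaves the difference in depth, the shares were 37.4%, 15.7% and 36.7% for C5ar2 and 95.1%, 51.9% and 93.8% for C5ar1. The thinned lymphocyte shares were 0.0609%, 0.80% and 0.371% for C5ar2. At 2 hours 3360 of the 4401 neutrophils were left out as too shallow. Unlike C3, C5ar2 was low in cluster 21d, at 13.7 CPM, where C5ar1 stood at 1439 CPM.

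The calls on the members stand beside those on all genes. In macrophages from naive to 3 days, 15.0% of 10884 genes were called higher and 24.3% lower, and 6 of 9 members were called higher and 0 lower. Their median log2 ratio was 2.68, against -0.23 for all genes. Of the 107 naive macrophages, however, 102 were alveolar-macrophage-like. Within clusters 16a and 16b alone, with 5 naive cells, none of the 6 members stayed higher by more than 2-fold. In monocytes 8.1% of genes were called higher at 2 hours and 30.1% lower, against 4 of 6 and 0 of 6 members. From naive to 3 days the shares were 8.99% and 16.2%, against 5 of 9 members higher, 3 of them C1q chains at the lymphocyte level, and 0 lower. From 2 hours to 3 days they were 23.4% and 8.68%, against 5 of 9 higher, the same 3 chains, C3 and Cfb, and C5ar2 lower. At 2 hours each chain had 1 UMI and Cfb 4 UMIs, and the log2 intervals of C1qa, C1qc and Cfb included 0. In neutrophils 12.6% of genes were called higher at 2 hours and 22.8% lower, against 1 of 4 members, C5ar2, and 0. From naive to 3 days the shares were 16.5% and 14.6%, against 4 of 8 members higher, the 3 C1q chains and C3ar1, all near the lymphocyte level, and 0 lower, and the members had a median log2 ratio of 0.07 against 0.18 for all genes. From 2 hours to 3 days they were 17.9% and 7.83%, against the same 4 higher and C5ar2 lower, with medians of -0.06 and 0.27. In lymphocytes 8.34% of genes were called higher at 2 hours and 33.2% lower, against 4 of 4 members higher and 0 lower. From naive to 3 days the shares were 6.9% and 23.8%, against 8 of 8 higher, and from 2 hours to 3 days 16.4% and 8.05%, against 5 of 8 higher. The part of free RNA in these calls and in those of the other lineages was not tested. With the intron-limited denominator 3 calls fell below 2-fold: C5ar2 in neutrophils at 2 hours (log2 0.71), and in monocytes Cfp at 2 hours (0.61) and C5ar1 at 3 days (0.91). Comparisons with the naive library share it.

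**Figure D5:**
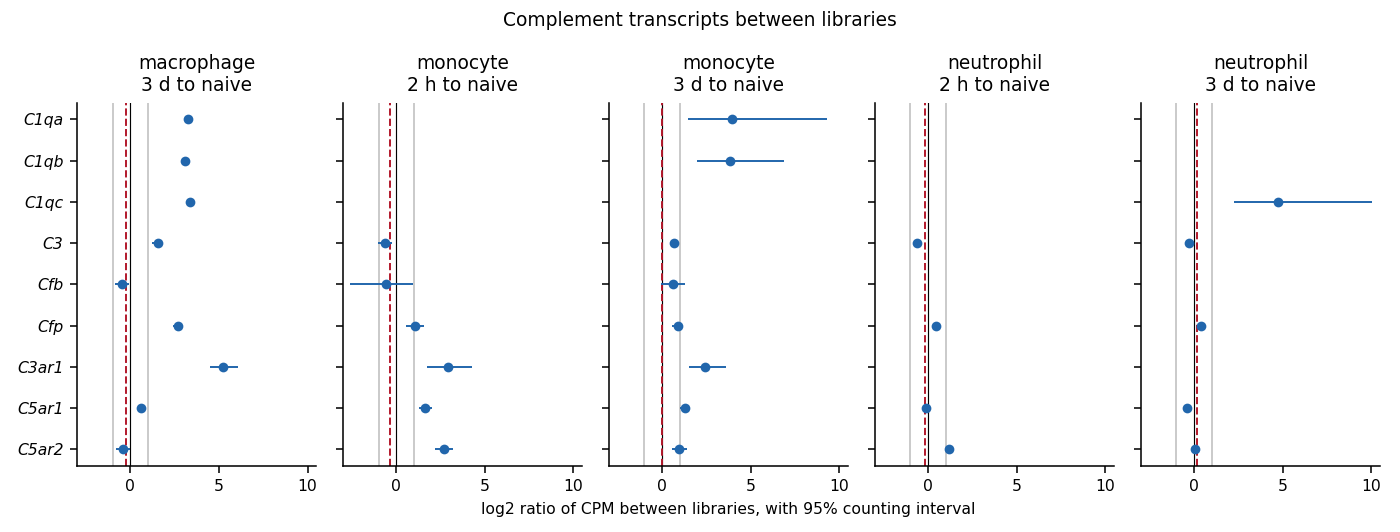
Log2 ratios of member CPM in 5 comparisons of libraries, with exact 95% intervals of counting error, grey lines at a 2-fold difference and a red dashed line at the median of all genes tested. In macrophages at 3 days 6 of 9 members lie above the upper grey line, and C5ar2 lies above it in monocytes and neutrophils at 2 hours.

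Of 43 other complement genes listed, 10 reached 100 CPM in a lineage and 10 stayed under 1 CPM everywhere. In 3-day macrophages, against naive ones, 6 of 15 were called higher and 3 lower, beside 15.0% and 24.3% of all genes. From naive to 3 days 6 of 16 were higher and 2 lower in monocytes, beside 8.99% and 16.2%, and 5 of 13 higher and 1 lower in neutrophils, beside 16.5% and 14.6%. From naive to 2 hours 1 of 9 was higher and 2 lower in monocytes, beside 8.1% and 30.1%. In neutrophils 2 of 9 were higher and 2 lower, beside 12.6% and 22.8%. From 2 hours to 3 days 2 of 17 were higher and 3 lower in monocytes, beside 23.4% and 8.68%. In neutrophils 6 of 13 were higher and 1 lower, beside 17.9% and 7.83%. In 3-day macrophages Itgam, the alpha chain of complement receptor 3, stood at 1688 CPM, against 11.3 CPM in naive ones, and Cd93 at 210 against 11.3 CPM. Of the 107 naive macrophages, 102 were alveolar-macrophage-like. Itgax, the alpha chain of complement receptor 4 and an alveolar macrophage gene, was lower in 3-day macrophages, at 36.7 against 353 CPM. Itgb2 (804 CPM) and Calr (708 CPM), the shared beta chain and a C1q-binding chaperone, were highest in 3-day macrophages. Cd55, which speeds the decay of convertases, was highest in 3-day lymphocytes at 275 CPM, and Cr1l in naive endothelial-like cells at 230 CPM. Cd93 was highest in 3-day endothelial-like cells, at 1276 CPM, as was the fluid-phase inhibitor Clu, at 225 CPM in 25 of 76 cells. These cells were mixed: stromal or epithelial markers summed to 12330 CPM in them, against 143.8 CPM in the naive ones, and their endothelial markers to 14440 CPM. Hc, which encodes C5, reached 155 CPM there, but all 55 UMIs were in 1 cell.

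Over the 13 points of lineage and library with at least 30 cells, C1qa followed C1qb and C1qc closely (Pearson's r of 0.994 with each) and C3 hardly at all (0.221). The points share libraries and lineages, so these values are descriptions. Outside the members, with a pseudocount of 10 CPM, the genes most like C1qa were Mmp12, Scamp5, Cd163, Ccl7 and Fcrls, with r from 0.961 to 0.977 among 13661 genes. Those most like C3 were Igsf6, Gda, Emilin2, Cd300c2 and Vill, and those most like C3ar1 were Nxpe5, Cysltr1, Gatm, Serpinb2 and Ccdc71l. C5ar1 was most like Ccr1, Slpi, Nlrp3, Fpr2 and Osm, Cfb most like Tcirg1, Nr1h3, Cebpa, Tmem106a and Rnase4, and Cfp most like Arpc5, Efhd2, Dazap2, Atp6v0c and Sod2. C5ar1 and C5ar2, neighbours in the genome, had an r of 0.878. The lists depend on the pseudocount: with 1 CPM those of C1qa were Ccl7, Ccl24, Mmp12, Ltc4s and Cd163, and those of C3ar1 Gatm, Dpep3, Nxpe5, Flrt3 and Ccl2.

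The 2-hour and 3-day libraries also carried antibody counts, with 10 antibodies to complement receptors and regulators, C5AR2 among them. None of the 10 passed the highest of 9 isotype controls in any of 8 sets of lineage and library. For C5AR2 in 2-hour neutrophils the count was 6.82 per 1000 cells, against isotype controls between 12.7 and 224. In lymphocytes it was 59.9 at 2 hours and 145 at 3 days, above 7 and 8 of the 9 isotype controls. No source used here says whether these antibodies bind the mouse proteins.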

How the data were processed

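Droplet single-cell RNA-Seq was available from 1 library each of naive, 2-hour and 3-day lungs, with cells of 2 mice pooled in each. The deposited files hold UMI counts per gene and cell, which the authors made with Cell Ranger against mm10. Per the file headers the naive library went through version 7.1.0 and both graft libraries through 6.0.0, while the submitters' notes name Cell Ranger 6 and Seurat 4. The labels and the methods give different chemistries, and neither says how intronic reads were treated.

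The filters of the study's methods were applied (above 200 and below 6000 genes, below 25000 UMIs, a mitochondrial share below 10%). They were clustered with Seurat 5.3.0 and sctransform 0.4.2 in R 4.3.3 (30 principal components, resolution 0.8), without the members and 43 other complement genes, and mixed clusters were clustered again with 15 components, their parts carrying letters. A cluster was named "-like" where its marker list had a median log2 ratio above 1, with 3 or more markers above 1, unless another class had more markers among its top 10 genes or its cells were shallow and held no own marker there. Scrublet in scanpy 1.11.5 called 44, 397 and 267 doublets, which stayed in the main values. UMIs were summed per library and lineage and given as CPM with exact 95% Poisson intervals, ratios with exact conditional intervals and shares with exact Clopper-Pearson intervals (scipy 1.17.1). These cover counting error only. A count of 0 allows 3 counts. A ratio needed 30 cells in both libraries. No test across samples was possible. The computation of the ratios was checked on simulated Poisson counts, which leave out the spread between cells and mice.

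The members and lists were chosen with earlier results of these data known. The named genes are the 9 members, up to 12 of the other complement genes with at least 100 CPM in a lineage, and the 5 genes most like a member by Pearson correlation of log2(CPM + 10). The values of 1 gene that this rule names are not reported here. Alternatives were no cell filter, resolutions 0.4 and 1.2, a cell-by-cell lineage call, removal of doublets or of cells with markers of another lineage, other denominators, a mean over cells, subtraction of the lymphocyte level and pooled lineages. Restrictions to single clusters or monocyte types were chosen after seeing the data.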

Additional observations from a re-analysis of the deposited data

Results flagged for a closer look

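Several members had log2 ratios of opposite sign in different lineages of the same libraries, with counting intervals that excluded equal levels. The negative ratios were all within 2-fold. None of these differences was tested, since there was 1 library per condition. The macrophage ratios compare mostly alveolar-macrophage-like naive cells with 3-day cells without that label. C3 from naive to 3 days had log2 ratios of 1.541 in macrophages and 0.689 in monocytes, against -0.291 in neutrophils. C5ar1 from naive to 2 hours had 1.639 in monocytes and -0.11 in neutrophils. From naive to 3 days C5ar1 had 0.605 in macrophages, 1.275 in monocytes and -0.415 in neutrophils. C5ar2 from naive to 3 days had -0.43 in macrophages and 0.943 in monocytes. With the intron-limited denominator the 3-day C5ar1 ratio in macrophages was 0.173. The 5 naive macrophages without the alveolar label stood at 596 CPM of C5ar1, against 591 CPM in 3-day macrophages.

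Of the naive Cfb UMIs, 71.1% lay in cells that the filter removed and that enter only the alternative without a cell filter.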

How the results depend on the processing

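No paired analysis was possible because each condition had 1 library, and no library could be left out. Depth limits the 2-hour values most, with 6 macrophages and a median of 878 UMIs per cell. Of 568 recomputed ratios, 447 stayed within the main value's counting interval, 113 moved outside it and 8 that were called reversed. In all, 27 changed sign. The ratios to naive of C1q, C3, Cfb and C3ar1 in macrophages, Cfp in 3-day monocytes and C5ar1 in 2-hour neutrophils were recomputed 76 times. Of these 76, 50 stayed within the interval. The causes were not tested. For the C1q sum in macrophages, 3 days to naive (3.237), the log2 ratio was 4.673 without the cell filter, 2.997 with the cell-by-cell call, 3.099 without cells holding markers of another lineage, 2.805 with the intron-limited denominator, 2.171 as a mean over cells and 2.709 with monocytes pooled in. The intron-limited denominator gave 1.109 for C3 and -0.905 for Cfb in macrophages, 0.518 for Cfp in monocytes at 3 days and -0.588 for C5ar1 in neutrophils at 2 hours. A mean over cells gave 1.169 for C3 and 4.352 for C3ar1 in macrophages, and pooling with monocytes gave 1.104 and 4.216. The cell-by-cell call gave 4.379 for C3ar1. Cfp in monocytes at 3 days was 1.387 without cells holding markers of another lineage and 1.839 pooled with macrophages. With the lymphocyte level subtracted, C1q and C1qc in monocytes, 3 days to 2 hours, reversed to -1.442 and -1.109.

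Other settings were chosen after seeing the data. In clusters 16a and 16b alone, with 5 naive cells, the macrophage ratios were -1.394 for the C1q sum, -1.403 for C1qa, -1.318 for C1qb, -1.483 for C1qc, -1.825 for C3 and 0.243 for C3ar1. Cluster 9 against cluster 24 gave 12.083 for the C1q sum, on 1 naive UMI, 1.946 for C3 and 8.867 for C3ar1. Nonclassical cells alone gave 0.577 for Cfp at 3 days to naive and -2.508 for Cfb at 3 days to 2 hours. C5ar1 in neutrophils at 2 hours was -0.003 with cluster 0 and -0.287 with cluster 3.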
